A study of Mus musculus with 3 samples.

Results

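The genes described here encode histone deacetylases of class I (Hdac1, Hdac2 and Hdac3) and class IIa (Hdac4, Hdac5, Hdac7 and Hdac9) and the corepressor scaffolds Ncor1 and Sin3a. These 9 genes were taken from 21779 protein-coding genes of the mouse. A peak of 5-hydroxymethylcytosine (5hmC), the oxidised form of 5-methylcytosine, was counted at a gene when its midpoint lay in the gene's span or within 5 kb of it. The 9 genes had 226 of the 208468 distinct peaks. The study has 3 samples of mouse bone marrow cells: 1 of normal marrow and 2 replicates of NIDF-AML, an acute myeloid leukaemia (AML) that was induced by FLT3-ITD, DNMT3A/R882H, NPMc (mutant NPM1) and IDH2/R140Q together. The labels name none of these alleles for normal marrow. The labels used here name no strain, age, promoter of the mutant genes or number of animals.

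The 2 NIDF-AML samples supplied the peak lists, and normal marrow was not analysed here. All 223267 lines were the same in both, so they were counted as 1 list. Both headers name the index 4 library as the treatment, against index 5 in one list and index 6 in the other. Which sample carries index 4 is not stated, and since the shared index is paired with a different control in each list, it may be normal marrow. Each value below therefore describes the index 4 library, has no replicate, and supports no test of NIDF-AML against normal marrow. Sequencing depth is unknown and a peak has no height, so a gene without a peak is only a gene at which none was listed. Intervals are exact 95% intervals that treat peaks as independent Poisson counts and cover counting error only. As background, 73.1% of all protein-coding genes had at least 1 peak. Marker genes of marrow granulocytes and monocytes had a peak at 12 of 12 and those of B cells at 8 of 8. Those of T and NK cells and of erythroid cells had one at 7 of 8 each. Median densities of these lists were 0.685, 0.436, 0.195 and 0.2496 peaks per kb in that order, against 0.106 over all protein-coding genes. Neuronal markers had a peak at 5 of 10, hepatocyte markers at 5 of 10, and stroma and endothelium markers at 3 of 8. Their median densities were 0.0162, 0.0249 and 0. The marker lists are short, and their shares were not tested against that of all genes.

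Histone deacetylases remove acetyl groups from histone tails and so oppose the acetyltransferases at active genes. HDAC1 and HDAC2 are the deacetylase subunits of the SIN3, NuRD and CoREST complexes, and HDAC3 is that of the complex built on NCoR1. Class IIa enzymes have little deacetylase activity of their own. They bind MEF2 transcription factors through a long amino-terminal part, and leave the nucleus for the cytoplasm when kinases phosphorylate them and 14-3-3 proteins hold them. In AML, fusion proteins such as RUNX1-RUNX1T1 and PML-RARA recruit NCoR with HDAC3. 5hmC is made by TET enzymes, lies mostly at CG dinucleotides, and in many tissues is found within the bodies of transcribed genes. The product of mutant IDH2 inhibits TET enzymes.

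The DNA in front of the outermost annotated starts shows how much CG the members offer there. The sequences come from RefSeq (build GRCm38.p6, with the chromosomes of mm10), run 5′ to 3′ toward the gene, and have every CG in capitals. They hold up to 250 bases before the start and only bases outside the gene's span. The 3 class IIa genes and both scaffolds below are the members with enough such bases to print, and they run from no CG to many:
Hdac5 (chr11:102230173-102230422, - strand): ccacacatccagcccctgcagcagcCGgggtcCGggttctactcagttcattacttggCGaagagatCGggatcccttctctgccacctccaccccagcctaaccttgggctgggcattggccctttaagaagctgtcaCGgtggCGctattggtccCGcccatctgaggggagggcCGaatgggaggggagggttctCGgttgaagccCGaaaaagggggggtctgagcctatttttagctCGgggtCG
Hdac7 (chr15:97844503-97844752, - strand): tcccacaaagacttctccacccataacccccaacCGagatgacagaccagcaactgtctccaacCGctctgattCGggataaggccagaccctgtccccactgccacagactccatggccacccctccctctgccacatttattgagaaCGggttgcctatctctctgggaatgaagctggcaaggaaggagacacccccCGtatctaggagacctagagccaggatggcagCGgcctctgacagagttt
Hdac9 (chr12:34917096-34917345, - strand): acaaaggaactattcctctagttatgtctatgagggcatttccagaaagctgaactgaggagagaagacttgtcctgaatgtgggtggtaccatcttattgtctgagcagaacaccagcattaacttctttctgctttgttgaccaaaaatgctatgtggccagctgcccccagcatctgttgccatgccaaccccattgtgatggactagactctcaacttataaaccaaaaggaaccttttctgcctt
Ncor1 (chr11:62457415-62457582, - strand): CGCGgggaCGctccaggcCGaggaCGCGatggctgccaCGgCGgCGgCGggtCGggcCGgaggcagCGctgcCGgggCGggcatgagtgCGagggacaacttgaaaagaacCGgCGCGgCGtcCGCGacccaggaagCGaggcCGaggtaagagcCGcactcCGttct
Sin3a (chr9:57071790-57071990, + strand): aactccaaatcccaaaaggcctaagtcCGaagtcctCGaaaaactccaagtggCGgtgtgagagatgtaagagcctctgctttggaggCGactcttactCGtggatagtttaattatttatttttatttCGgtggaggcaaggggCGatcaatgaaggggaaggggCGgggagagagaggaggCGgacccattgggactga
The printed stretch of Hdac9 holds 0 CG dinucleotides, that of Hdac7 6, that of Sin3a 9 in 201 bases, that of Hdac5 12 and that of Ncor1 26 in 168 bases. None of these 5 stretches was overlapped by a peak.

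The same held for all annotated starts of the members. RefSeq promoter windows (250 bases before a start and 50 after it) were matched by symbol and gave 13 starts of 7 members, all but Hdac1 and Hdac3. A peak overlapped 0 of the 13 windows, where 4.55% of 21263 protein-coding starts were overlapped. A peak midpoint lay within 500 bp of 2 of 13 starts (12.4% of all starts) and within 1 kb of 4 of 13 (27.5% of all starts). These shares were near the background. The 4 starts with a peak within 1 kb were 3 of Hdac7, at 442, 487 and 953 bp, and the inner start of Hdac9 at 653 bp. The 3 Hdac7 starts are not independent, since they lie in 1 gene. At Hdac7 the peak 442 bp away lay before the outermost start (97844896 to 97844992 on chromosome 15), in front of the sequence printed above.

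The nearest peak lay farther from the other starts. It was 1159 bp downstream at the remaining Hdac7 start, 1165 bp downstream at Hdac4, 1656 bp downstream at Hdac2 and 1780 bp downstream at Hdac5. The Hdac4 start used (92180341) lies inside the gene, whose span ends at 92195702 on that side. A peak at 92196608 to 92196640 lies within 1 kb beyond that end. The nearest peak was 2324 bp upstream of the outer start of Ncor1 and 13973 bp upstream of its inner start. For the outer start of Hdac9 it was 10765 bp upstream. The starts of Sin3a were 6000 and 10336 bp from the nearest peak, downstream in both cases. CG content did not order these distances. The windows of Hdac2 and of the outer Ncor1 start held 36 CG each, more than 91.8% of all starts, and that of the outer Hdac9 start held 0. The median was 18 CG over the 13 member starts and 13 over all starts. It was 15 over all starts with a peak within 1 kb and 12 over those without. The 4 member starts with a peak within 1 kb had a median of 5.5 CG. Those of Hdac7 held 6, 5 and 35 CG and that of Hdac9 held 3, too few starts to show a trend.

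All 9 members had a peak in the gene or within 5 kb, against 73.1% of protein-coding genes. All 9 also had one in the gene body, where 66.6% of genes did. The counts ran from 2 to 78 and had to be read against gene span, since the members' spans run from 18.05 kb (Hdac3) to 869.5 kb (Hdac9). Of the 226 peaks, 203 lay in the bodies and 23 in the 5 kb on either side. Peak widths at the members ran from 17 to 145 bp. Positions in the list are rounded to multiples of 4 or 8 bp at these genes, so widths and short distances are coarse.

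**Figure D1:**
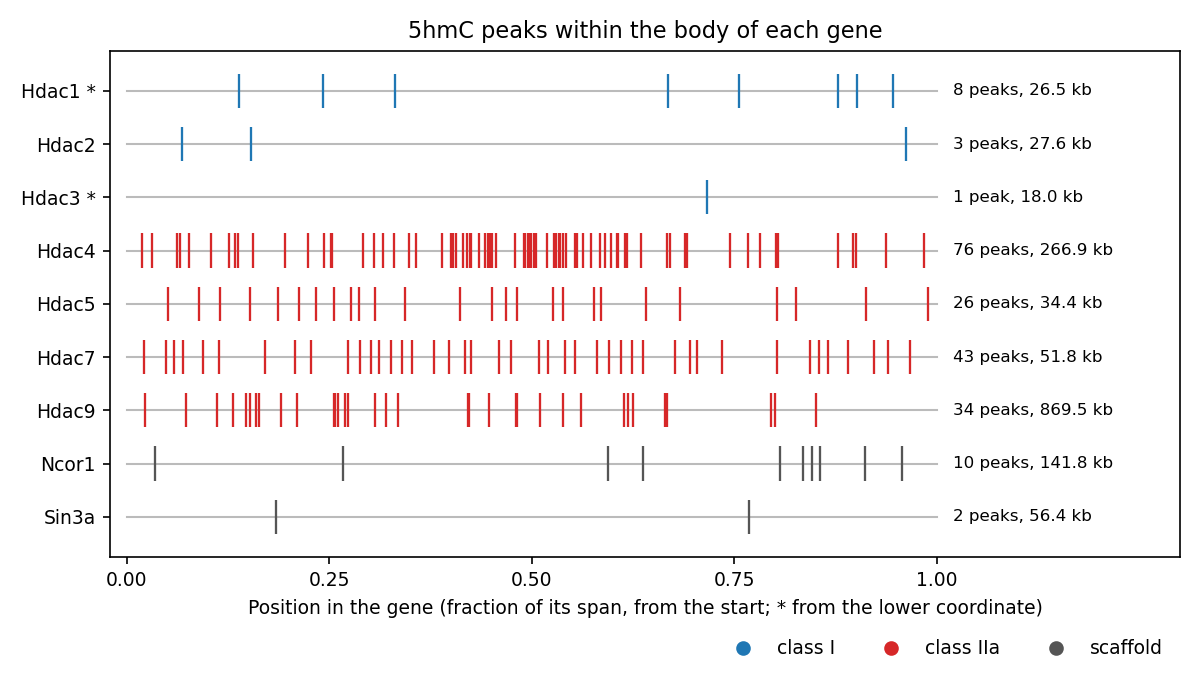
Each row is a gene and each tick a 5hmC peak in its body, placed by its fraction of the gene's span from the annotated start (Hdac1 and Hdac3, marked with an asterisk, from the lower coordinate). Hdac4, Hdac5 and Hdac7 carry 76, 26 and 43 peaks along their whole length, the 76 of Hdac4 most closely spaced in its middle part, while Hdac2, Hdac3 and Sin3a carry 3, 1 and 2.

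Among class I genes, Hdac1 had the most peaks. Hdac1 (chromosome 4, 129516104 to 129542646) had 14 peaks (interval 7.65 to 23.5), 8 in its body and 6 outside it. This is 0.383 peaks per kb of gene and flanks (0.209 to 0.643), and 80.4% of the 2702 genes of like span (80% to 125% of its own) had fewer. The peaks fell into 2 groups, with none between 129524888 and 129533840. Marcksl1, the protein-coding neighbour at the lower end, lies within 5 kb of 6 of the 14 peaks, so these cannot be given to Hdac1 alone. Without peaks near another protein-coding gene, Hdac1 kept 8 peaks, more than 72.5% of genes of like span.

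Hdac2 encodes the close paralogue of HDAC1 and has nearly the same span, but it had few peaks. Hdac2 (chromosome 10, 36974297 to 37001889) had 3 (0.619 to 8.77), all in its body, or 0.0798 per kb (0.0165 to 0.233). Of 2664 genes of like span, 34.7% had fewer and 58.3% had more. The first lies at 36976180 to 36976220, the next at 36978480 to 36978560 and the last at 37000808 to 37000872, and the 22.3 kb between the latter pair, 80.9% of the gene, held none. Per kb, Hdac1 had 4.80 times as many peaks as Hdac2 (interval of the ratio 1.34 to 26.1). This ratio counts the peaks that Hdac1 shares with Marcksl1. With only the peaks near no other protein-coding gene, 8 at Hdac1 and 3 at Hdac2, it was 2.74 (0.658 to 16.1), an interval that holds 1. The window lengths were kept there, which lowers the density of a gene with a near neighbour.

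Hdac3 (chromosome 18, 37936971 to 37955015), the deacetylase of the NCoR complex, had 2 peaks (0.242 to 7.22), or 0.0713 per kb (0.00864 to 0.258). The peak in its body lies at 37949860 to 37949956. The other lies in the flank at 37932840 to 37932888, inside the neighbouring gene Diaph1. Of 2690 genes of like span, 28.1% had fewer peaks. The count at Hdac3 depended on the flank, with 1 peak in the body alone and 7 within 10 kb, more than 50.4% of genes of like span. Hdac2 and Hdac3 thus did not differ beyond their intervals. Both lay below the median of 5 peaks at genes of like span, but both intervals hold that median.

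Class IIa genes had many peaks for their span. Hdac7, which encodes a class IIa enzyme known from T cells and endothelium, had the highest density of the 9 genes. Hdac7 (chromosome 15, 97792661 to 97844502) had 52 peaks (38.8 to 68.2), 43 in its body, or 0.841 per kb (0.628 to 1.103). Of 1942 genes of like span, with a median of 7 peaks, 99.1% had fewer. The peaks lay along the whole gene, with 14, 17 and 12 body peaks in its 3 equal parts, counted from the start. The longest stretch of the body without a peak was 3.52 kb, and the median spacing was 968 bp. The densest 10 kb (97819928 to 97829927) held 12 peaks. Slc48a1, at the far end of Hdac7, lies within 5 kb of 9 of the 52. The non-coding gene Gm33636, inside Hdac7 in the table, held 8 of the peaks.

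Hdac5, whose product restrains MEF2 in muscle and other tissues, followed in density. Hdac5 (chromosome 11, 102195747 to 102230172) had 29 peaks (19.4 to 41.6), 26 in its body, or 0.653 per kb (0.437 to 0.937). Of 2402 genes of like span, with a median of 6 peaks, 95.7% had fewer. The 3 equal parts of the gene, from its start, held 11, 10 and 5 peaks, and no stretch of the body over 4.15 kb was without one. The densest 10 kb (102211640 to 102221639) held 11 peaks. The neighbour G6pc3 lies within 5 kb of 5 of the 29 peaks. The intervals of Hdac5 and Hdac7 overlapped, so their order in density lies within counting error.

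Hdac4, a class IIa enzyme known from chondrocytes, muscle and neurons, had the most peaks of the 9 genes and came after Hdac7 and Hdac5 in density. Hdac4 (chromosome 1, 91928779 to 92195702) had 78 peaks (61.7 to 97.3), 76 in its body, or 0.282 per kb (0.223 to 0.352). Of 445 genes of like span, with a median of 11 peaks, 88.3% had fewer. Its peaks were gathered in the middle of the gene: of 3 equal parts, the middle one held 43, that at the start 19 and that at the end 14. The densest 10 kb (92045160 to 92055159) lay in that middle part and held 9 peaks. No other protein-coding gene lies within 5 kb of any of the 78. The non-coding gene LOC108167659 held 2 of them.

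Hdac9, which also encodes MITR, a form without the deacetylase domain that still binds MEF2, had the lowest density of the 9 genes over the longest span. Hdac9 (chromosome 12, 34047580 to 34917095) had 34 peaks (23.5 to 47.5), all in its body, or 0.0387 per kb (0.0268 to 0.0540). The interval of its density overlaps those of Hdac2, Hdac3, Ncor1 and Sin3a, so its place as lowest lies within counting error. Long genes had few peaks for their length, and the median was only 4 peaks over the 77 genes of like span. Of these, 89.6% had fewer peaks than Hdac9 and 9.09% had more. Of 3 equal parts, that at the start held 17 peaks, the middle one 13 and that at the end 4. The final 129 kb (34047580 to 34176732) held none. Per kb, Hdac7 had 21.8 times as many peaks as Hdac9 (13.9 to 34.6), Hdac5 16.9 times (9.92 to 28.6) and Hdac4 7.29 times (4.81 to 11.2).

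**Figure D2:**
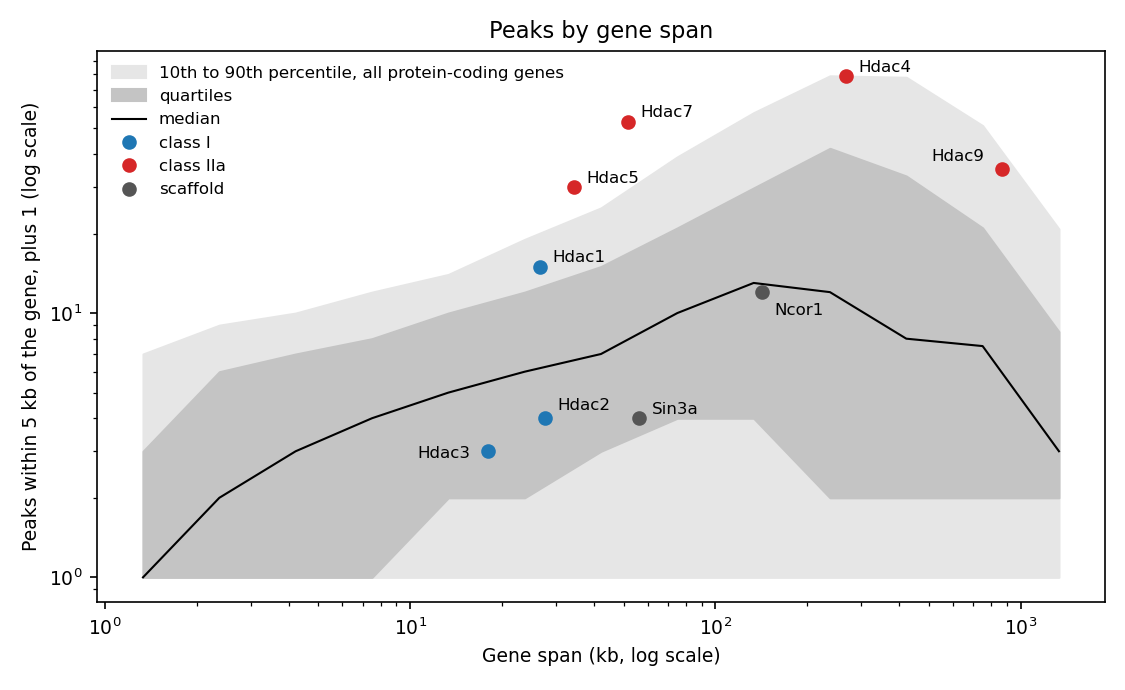
Points are the 9 genes, by span in kb and by peaks within 5 kb plus 1, both on log axes. Shaded bands are the 10th to 90th percentile and the quartiles of all protein-coding genes in bins of span, and the line is the median. Hdac5 (29 peaks) and Hdac7 (52) lie above the bands, Hdac4 (78) and Hdac9 (34) lie near the upper edge, and Hdac2, Hdac3 and Sin3a, with 2 or 3 peaks, lie under the median line.

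The contrast between the classes depended on how genes of unequal span were weighed, on single genes and on peaks shared with neighbours. Summed over genes, class IIa had 193 peaks in 1263 kb, or 0.153 per kb (0.132 to 0.176), and class I had 19 in 102 kb, or 0.186 per kb (0.112 to 0.290). The ratio of class IIa to class I was 0.822 (0.512 to 1.40), an interval that holds equal densities. Hdac9 makes up most of the summed length of class IIa. Without Hdac9 the ratio was 2.23 (1.38 to 3.80), and without Hdac1 it was 2.01 (0.845 to 6.25). With only the peaks near no other protein-coding gene it was 1.21 (0.674 to 2.38). With Hdac8, listed below among the other deacetylases, added to class I it was 2.42 (1.54 to 4.004), an interval above 1. Hdac8 had 2 peaks over a span of 220.7 kb. The median over genes was 0.467 per kb in class IIa and 0.0798 in class I, a ratio of 5.85, where the median of all protein-coding genes was 0.106. With a flank of 10 kb the medians were 0.433 and 0.184, a ratio of 2.36, and that of all genes was 0.109. Of the members, 3 of 4 in class IIa, 1 of 3 in class I and 0 of 2 scaffolds lay above the all-gene median of 0.106, where 50% of all genes did. Against genes of like span, the 4 class IIa genes exceeded 88.3% to 99.1%, and the 3 class I genes 28.1% to 80.4%. By this measure each of these class IIa genes stood above each of these class I genes. With so few genes, no test between the classes was made.

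Of the scaffold genes, Ncor1 had about as many peaks as genes of like span and Sin3a fewer than most, and both were low per kb. Ncor1 (chromosome 11, 62315663 to 62457414), the scaffold that carries HDAC3 to nuclear receptors, had 11 peaks (5.49 to 19.7), 10 in its body, or 0.0725 per kb (0.0362 to 0.130). Of 906 genes of like span, with a median of 13 peaks, 45.0% had fewer and 52.9% had more. From its start, the 3 equal parts of the gene held 2, 2 and 6 peaks, and the densest 10 kb (62336160 to 62346159), toward the end of the gene, held 4. No peak lay in the 46.3 kb from 62373264 to 62419540. Ttc19 lies within 5 kb of 3 of the 11 peaks and Pigl of 1, which left 7 at Ncor1 alone.

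Sin3a (chromosome 9, 57071991 to 57128368), the scaffold that holds HDAC1 and HDAC2 in the SIN3 complex, had 3 peaks (0.619 to 8.77), or 0.0452 per kb (0.00932 to 0.132). Its 2 body peaks lie at 57082360 to 57082392 and 57115252 to 57115348, with 32.9 kb between them. The other lies past its end, at 57133232 to 57133296 inside Man2c1, and is listed on 2 lines. Of 1822 genes of like span, with a median of 8 peaks, 25.7% had fewer and 69.3% had more. The interval of the Sin3a count holds that median.

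The paralogue of Sin3a had more peaks. Sin3b, which encodes the related scaffold, had 13 peaks, or 0.289 per kb against 0.0452 at Sin3a, a ratio of 6.40 (1.76 to 35.02). The interval lies above 1, also with only the peaks near no other protein-coding gene (ratio 7.39, 1.57 to 69.3). This pair and the pair of Hdac1 and Hdac2 were set side by side after their values were seen.

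Peaks gather in regions, so each gene was also set beside the 500 kb on either side of its window. The density of Hdac5 was 4.53 times that of its neighbourhood (2.93 to 6.79), with 0.653 against 0.144 per kb. That of Hdac7 was 3.003 times (2.19 to 4.05), with 0.841 against 0.280, and that of Hdac4 2.18 times (1.63 to 2.91), with 0.282 against 0.129. These 3 class IIa genes thus exceeded their surroundings beyond counting error. The same ratio is not given for genes other than the members, so how unusual these ratios are was not tested. Hdac9 had 0.0387 against 0.0430, a ratio of 0.899 (0.556 to 1.44), so its low density was also that of the region.

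The scaffold genes lay below their surroundings. Sin3a had 0.2497 of the density around it (0.0510 to 0.741), with 0.0452 against 0.181 per kb. Ncor1 had 0.390 of it (0.191 to 0.714), with 0.0725 against 0.186. For class I the intervals held 1: the ratio was 1.40 at Hdac1 (0.754 to 2.39), 2.05 at Hdac2 (0.405 to 6.44) and 0.506 at Hdac3 (0.0607 to 1.86). Hdac2 lies in a region with few peaks (0.0390 per kb) and Hdac1 in one with many (0.274 per kb), so the difference between these paralogues was also one between their regions. The part of neighbouring genes in these densities was not tested.

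**Figure D3:**
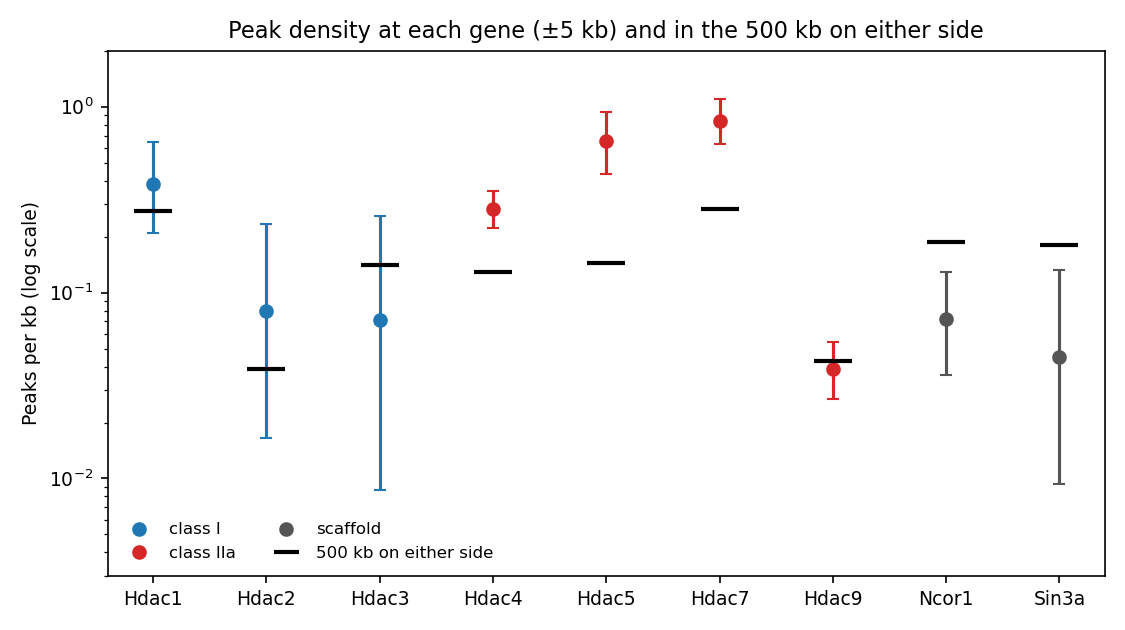
Points are peaks per kb of each gene with 5 kb on either side, on a log axis, with exact 95% Poisson intervals, and black bars are the density of the 500 kb on either side. Hdac4, Hdac5 and Hdac7 lie above their bars, Ncor1 and Sin3a lie below theirs, and the intervals of Hdac1, Hdac2, Hdac3 and Hdac9 hold the bar.

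The other genes of deacetylation pathways were taken from 9 lists with 96 genes in all, of which 94 had a peak (73.1% of all protein-coding genes did) and 74 lay above the all-gene median of 0.106 per kb. Their median was 0.330 per kb, against 0.0798 over the 9 members. Of the other deacetylases, Hdac10 had 11 peaks (0.714 per kb), Hdac11 9 (0.321 per kb), and the X-linked genes Hdac8 and Hdac6 had 2 and 1. The sirtuins, deacetylases that use NAD, had a peak at 7 of 7 and a median of 0.454 per kb, with 22 at Sirt2 and 13 each at Sirt3 and Sirt7. All 7 lay above the all-gene median, which is not matched for their span.

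Among the partners of the members, the ranges of density overlapped between complexes, and no difference between complexes was tested. The other NCoR complex genes examined had a peak at 3 of 3 and a median of 0.353 per kb. Tbl1xr1, an exchange factor of the complex, had 53, Gps2 7 and the X-linked Tbl1x 3. The other SIN3 complex genes had one at 13 of 14 and the lowest median of the 9 lists, 0.172 per kb, next to 0.178 for the other deacetylases. In that list Arid4a had 25, Suds3 16, Phf12 and Sin3b 13 each, and Ing2 none. NuRD genes had one at 11 of 11 and a median of 0.470, with 81 at Mta3, 34 at the methyl-CpG binding gene Mbd2 and 28 at Gatad2a. CoREST genes had one at 8 of 8 and a median of 0.224, with 260 at Gse1, 23 at Rcor1 and 22 at Phf21a. Summed over genes, CoREST had 0.400 per kb and NuRD 0.402. Gse1 alone held 260 of the 348 CoREST peaks, so the CoREST sum rests largely on 1 gene.

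Acetyltransferase genes, which encode the opposing enzymes and coactivators, had a peak at 13 of 13 and a median of 0.320 per kb, with 83 at Ncoa2, 39 at Ncoa3 and 36 at Kat6b. Partners and kinases of the class IIa enzymes had one at 20 of 21 and a median of 0.404, with 17 of 21 above the all-gene median. The kinase genes Sik3, Camk1d and Camk2d had 96, 63 and 41 peaks, and the kinase gene Prkd1 none. DNA-binding repressors and cofactors that recruit the corepressors had one at 15 of 15 and the highest median of the 9 lists, 0.517 per kb. Zbtb16 (PLZF) had 81 peaks there, Cbfa2t3 (ETO2) 74 and Ikzf1, a lymphoid and stem cell regulator, 71. In all 9 lists the median lay above that of all protein-coding genes, as it did for class IIa, while that of the scaffolds (0.0588) lay below it. That of class I (0.0798) lay below it too. In gene bodies alone it lay above (0.109 against 0.0941), as it did with a flank of 10 kb (0.184 against 0.109). With only the peaks near no other protein-coding gene it also lay above (0.0798 against 0.0431). Window lengths were kept there, which lowers genes with near neighbours, and the class I median is that of Hdac2, which shares no peak. The 9 lists were not matched for span, and density varies with span. The median was 0.182 per kb over all genes of 10 to 17.8 kb and 0.0428 over those of 178 to 316 kb.

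**Figure D4:**
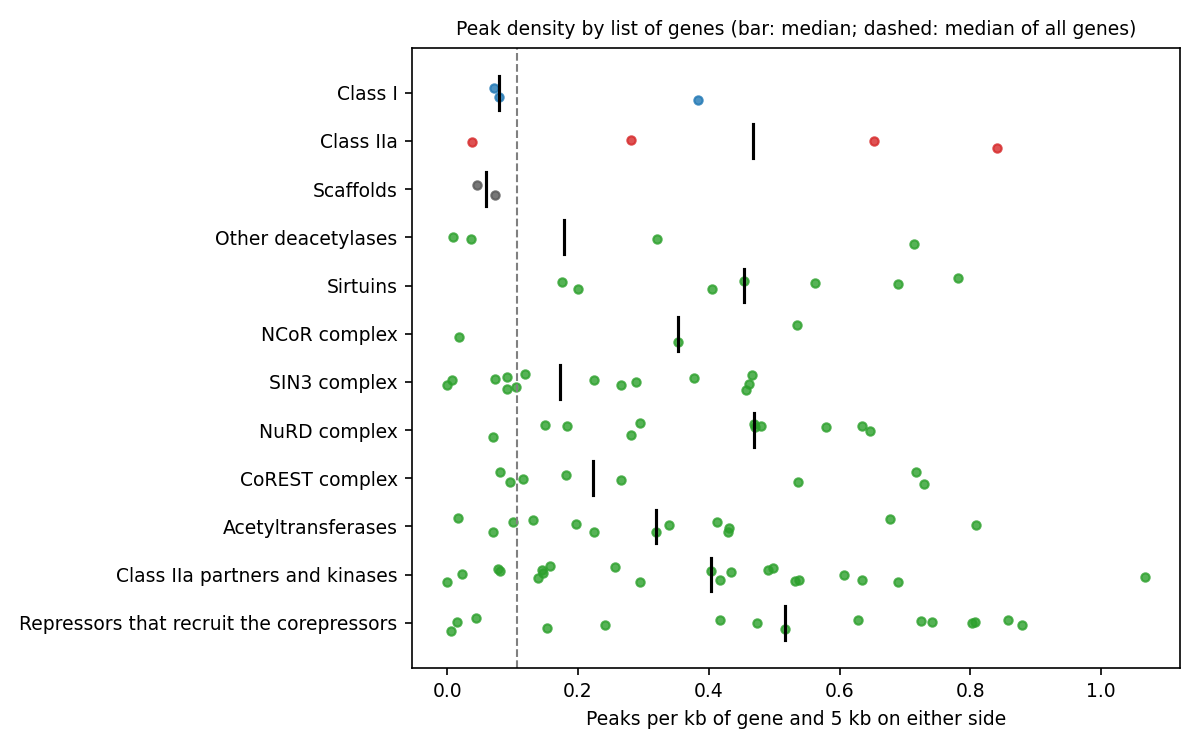
Each point is a gene, placed by its peaks per kb of gene and 5 kb on either side, in the member classes and the 9 lists of related genes. Black bars are medians and the dashed line is the median of all protein-coding genes (0.106 per kb). The bars of class I (0.0798) and of the scaffolds lie to its left and all others to its right. The class I median lies above the all-gene median in gene bodies alone, with a flank of 10 kb and without shared peaks (window lengths kept).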

How the data were processed

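Per the labels' protocols, β-glucosyltransferase added an azide-bearing glucose to 5hmC in sheared genomic DNA. Biotin was then attached, and the DNA captured on avidin was sequenced from both ends. The mm10 build comes from the submitters' processing notes. No source used here names the aligner. Per the file headers, the authors called peaks with PICS, a model of forward and reverse reads. The minimum forward and reverse read count was 3 in a 250 bp window and 10 in a region. The deposited lines give positions only, with no score.

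Repeated lines (14799) were counted once. Gene spans came from a RefSeq table of GRCm38.p6, without gene models on scaffolds, which start below 3000000 bp in the table. Counts, exact Poisson intervals and exact conditional intervals of ratios were computed in Python 3.11.15 with pandas 2.3.3 and scipy 1.17.1, and the counting was tested on simulated data. Genes of like span had 80% to 125% of the member's span. Named genes are the members, their neighbours that share a peak, and in each related list the 3 with most peaks and those with none. 1 further gene of these pathways was left out of the lists and is not reported here. The members and lists were chosen with earlier results of these data known. Alternatives were other flanks, any overlap of 1 bp, repeated lines, peaks near no other gene, and classes with genes left out or added.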

Additional observations from a re-analysis of the deposited data

How the results depend on the processing

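The ratio of class IIa to class I density (0.822) turned direction when the peaks near another protein-coding gene were left out (1.21, interval 0.674 to 2.38), with Hdac8 added to class I (2.42), without the gene Hdac1 (2.01), without the gene Hdac9 (2.23), and as a ratio of medians over genes (5.85). It was 5.45 without both Hdac1 and Hdac9, an alternative chosen after seeing the data. The cause of these turns was not tested. The median of class I was 0.184 per kb with a flank of 10 kb, since Hdac3 had 7 peaks there. The 226 peaks and the 9 members with a peak, and the number of genes with a peak in each of the 9 related lists, stayed within 1.5 times under each alternative run. Of 54 alternatives for counts at single members, those of the identical replicate lists not counted, 7 moved a count by more than that, all at Hdac1, Hdac3 or Ncor1. Against genes of like span, class IIa genes exceeded 83.97% to 98.3% with spans of 0.5 to 2 times theirs and 86.1% to 98.99% among genes with a peak, both chosen after seeing the data. Among genes with a peak, Hdac2 exceeded 19.5%, Hdac3 11.4% and Sin3a 14.6%, against 34.7%, 28.1% and 25.7% of all genes of like span. Without either replicate the ratio was 0.822, because the lists are identical, which says nothing about stability. No paired analysis was possible because only the leukaemia group has replicates, and their lists are the same. The files hold no score, so a stricter peak threshold was not run. Read depth is unknown, and counts of 1 to 3 peaks at Hdac2, Hdac3 and Sin3a limit what can be said of them.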
